A study of Homo sapiens with 10 samples.

Results

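The genes described here encode the YAP/TEAD transcription factors and 4 of their well-known target genes, and their chromatin was read from peak lists of MDAMB231 cells. The 10 members were chosen by name: the coactivator genes YAP1 and WWTR1, the DNA-binding factor genes TEAD1, TEAD2, TEAD3 and TEAD4, and the target genes CCN1, CCN2, ANKRD1 and AMOTL2. They are 10 of the 20098 protein-coding genes on chromosomes 1 to 22 and X in the GENCODE annotation of GRCh37 (hg19). Each gene, widened by 50 kb on both sides, formed a window, and the windows held 220 of the 128837 peaks in the 4 lists. A promoter was taken as any annotated start site of the gene with 1 kb on both sides, and a peak belonged to a window or promoter when it shared at least 1 base with it.

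MDAMB231 is an established triple-negative human breast cancer cell line, grown here in DMEM with 5% FBS and not treated. FAIRE-seq, which recovers DNA that is poorly bound by nucleosomes, and ChIP-seq for H3K4me3, H3K27Ac and H3K4me1 were each performed on 2 libraries, beside 1 input for FAIRE and 1 for ChIP. The authors combined both libraries of an assay into a single peak list, so no value below carries a replicate error and no test between groups was made. The lists held 18019 H3K4me3, 37495 H3K27Ac, 26771 H3K4me1 and 46552 FAIRE peaks, with median widths of 2524, 2664, 3041 and 913 bp. The FAIRE list holds subpeaks, some of which adjoin without a gap and may be parts of a single open region. Each was counted on its own, also in the densities and motif shares below, so FAIRE counts depend on how regions were split.

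YAP1 and its paralog TAZ, the product of WWTR1, are transcriptional coactivators that are held in the cytoplasm when the kinases of the Hippo pathway are active. In the nucleus they have no DNA-binding domain of their own and are brought to DNA by TEAD proteins, which recognise the core sequence CATTCC, often beside sites for the AP-1 factors. CCN1 and CCN2 encode matricellular proteins, ANKRD1 a nuclear ankyrin repeat protein and AMOTL2 an angiomotin family protein that binds YAP1, and all are widely used as readouts of YAP and TAZ activity, which is often high in triple-negative breast cancer cells. H3K4me3 marks promoters, H3K4me1 marks enhancers and the flanks of promoters, and H3K27Ac marks the active forms of both.

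The cell line label was checked at marker promoters. The mesenchymal or basal B genes VIM, CD44 and ZEB1 had peaks of all 4 lists over their promoters, as did 13.1% of all genes, but they have 9, 35 and 21 annotated start sites, where the median gene has 5. Of the 5 luminal and epithelial genes, ESR1, PGR and FOXA1 had an H3K4me3 peak but no H3K27Ac peak, CDH1 had H3K27Ac but no H3K4me3, and GATA3 had both, beside 67.3% of all genes with H3K4me3 and 63.5% with H3K27Ac. FAIRE peaks lay at promoters of FOXA1 and CDH1, and of 39.3% of all genes. None of the 5 had promoter H3K4me1, but only 20.0% of all genes had it. The marker genes were thus a weak check, and the label was taken as given.

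All 10 members had an H3K4me3 peak at a promoter, where 67.3% of all protein-coding genes had one. An H3K27Ac peak was present at the promoters of 9 members, with 63.5% among all genes, and the member without it was AMOTL2. H3K4me1 reached a promoter of 6 members, against 20.0% of all genes, and was missing from TEAD2, TEAD3, TEAD4 and AMOTL2. With the peak centre inside the promoter, only YAP1 and WWTR1 had it, and 8.64% of all genes. FAIRE peaks lay at the promoters of 7 members, against 39.3% of all genes, and were missing from TEAD3, TEAD4 and AMOTL2. Peaks of all 4 lists were found at promoters of 6 members, namely YAP1, WWTR1, TEAD1, CCN1, CCN2 and ANKRD1, whereas 13.1% of all genes had them, and this count rests on H3K4me1 peaks that share any base with the promoter. These counts add up all start sites of a gene, of which the members have a median of 6.5 and all genes 5. At the 5′ end alone, H3K4me3 was found at 9 members, H3K27Ac at 9, H3K4me1 at 5 and FAIRE at 5, with no share of all genes beside them. At a single start site, all 4 lists met in 5 members and in 8.53% of all genes, since no start site of WWTR1 had more than 3 of them. The 3 shorter TEAD genes, AMOTL2 and WWTR1 thus had no promoter with the full set.

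**Figure D1:**
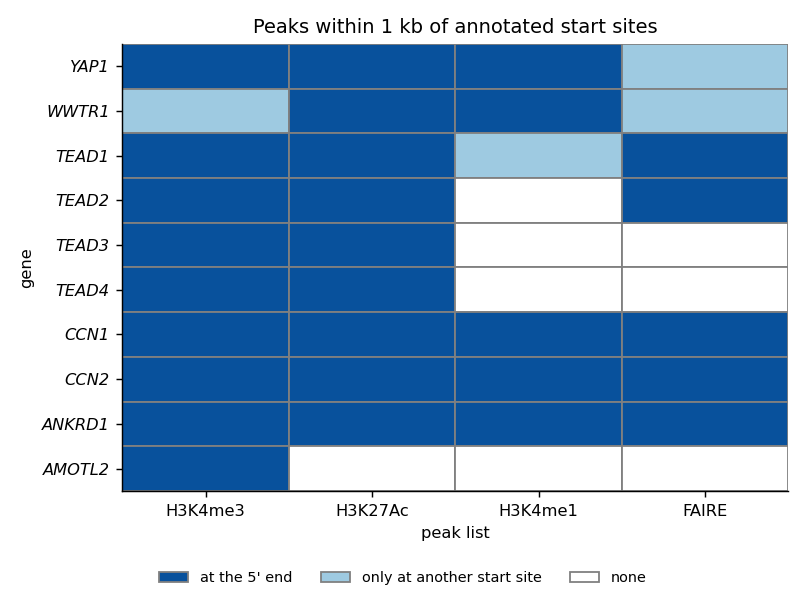
Presence of peaks within 1 kb of annotated start sites for the 10 genes (rows) in the 4 lists (columns); dark cells have a peak at the annotated 5′ end, light cells only at another start site, and white cells at none. CCN1, CCN2 and ANKRD1 have all 4 at the 5′ end, while AMOTL2 has H3K4me3 alone.

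YAP1 (ENSG00000137693), the main coactivator, lies at chr11:101981178-102104155 on the plus strand. Its window of 223 kb held 2 H3K4me3, 7 H3K27Ac, 12 H3K4me1 and 10 FAIRE peaks. An H3K4me3 peak of 4.68 kb with a score of 3100 reached the promoters of 4 start sites at the 5′ end, inside an H3K27Ac peak of 6.33 kb with the same score. The score of a histone peak is minus 10 times the log10 of its MACS p-value, and 56.8% of H3K4me3 and 10.5% of H3K27Ac peaks were at 3100 or more, so peaks at this value could not be ranked by it. The nearest FAIRE peak, with a height of 117, began 1111 bp inside the gene, so that the 5′ end itself had no FAIRE peak within 1 kb.

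A further region with all 4 signals lay far inside YAP1, at an annotated internal start site 117 kb from the 5′ end. There the H3K27Ac peak had a score of 2845 and the H3K4me1 peak a score of 491, higher than 94.7% of its list. The FAIRE peak had a height of 136, above 96.1% of all FAIRE peaks, while the H3K4me3 peak was 1.25 kb wide with a score of only 64.8. By score, H3K4me3 and H3K4me1 were thus reversed between the internal region and the 5′ end, where H3K4me1 scored 58.7. Both regions had H3K27Ac peaks with high scores. Between both regions, intronic H3K27Ac peaks at 60.5 and 68.0 kb also had scores of 3100, each with H3K4me1 and FAIRE peaks and without H3K4me3.

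WWTR1 (ENSG00000018408, chr3:149235022-149454501, minus strand), which encodes TAZ, had the most H3K27Ac peaks of the factor genes, with 14 in a window of 319 kb. Its FAIRE peaks numbered 16, some of them adjoining, beside 15 at TEAD1. Its annotated 5′ end had no H3K4me3 peak within 14412 bp and no FAIRE peak within 15575 bp. The H3K27Ac peak at that end was 1.07 kb wide with a score of 62.4, narrower than nearly all others of its list, of which 0.443% were narrower. The promoter signal was found instead at a cluster of start sites 78.7 to 79.3 kb downstream. Here an H3K4me3 peak of 5.51 kb with a score of 3100 met an H3K27Ac peak of 5.03 kb with a score of 2703 and a FAIRE peak of height 41.6, and H3K4me1 was 9940 bp away or farther.

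The widest acetylated region of WWTR1 was at another internal start site, 160 kb from the 5′ end. It had an H3K27Ac peak of 13.1 kb, wider than 99.4% of the list, and a single H3K4me1 peak of 21.7 kb, wider than 99.9% of its list. The H3K4me1 peak held 7 FAIRE peaks, some of them adjoining. The tallest had a height of 141 and lay within 1 kb of the start site. No H3K4me3 peak lay within 77980 bp of it. The H3K4me3 peak with the highest score and the widest H3K4me1 peak of WWTR1 thus lay in different regions. Further H3K4me1 peaks sharing bases with H3K27Ac were centred at 58.4, 90.3, 114, 132 and 182 kb. In contrast, the annotated 5′ end had only narrow peaks with low scores.

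TEAD1 (ENSG00000187079, chr11:12695968-12966284, plus strand), the longest of the TEAD genes, had 4 H3K4me3, 11 H3K27Ac, 10 H3K4me1 and 15 FAIRE peaks in 370 kb, and no other protein-coding gene reached into its window. Its 5′ end was covered by an H3K4me3 peak of 6.34 kb and an H3K27Ac peak of 9.44 kb, both with a score of 3100. A small FAIRE peak of 0.51 kb and height 54.6 was centred 35 bp upstream of it. H3K4me1 was not found within 31528 bp of the 5′ end, although TEAD1 carried 10 such peaks elsewhere. At an internal start site at 154 kb, peaks of all 4 lists met, with an H3K4me3 score of 644 and an H3K4me1 peak of 7.11 kb.

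The tallest FAIRE peak of all factor windows was in the first part of TEAD1, 19.3 kb into the gene. Its height of 163 was above 99.0% of the FAIRE list. It shared bases with an H3K27Ac peak of 6.94 kb with a score of 3100 and with an H3K4me3 peak of score 213, but with no H3K4me1 peak and no promoter of a protein-coding gene. Its central 300 bases are shown because this is the most accessible intronic region of the factor genes, on the plus strand of GRCh37 at chr11:12715098-12715397. Capitals mark CATTCC or its reverse complement GGAATG, and TGANTCA, the AP-1 sequence, which reads the same on both strands.

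TEAD1 intron: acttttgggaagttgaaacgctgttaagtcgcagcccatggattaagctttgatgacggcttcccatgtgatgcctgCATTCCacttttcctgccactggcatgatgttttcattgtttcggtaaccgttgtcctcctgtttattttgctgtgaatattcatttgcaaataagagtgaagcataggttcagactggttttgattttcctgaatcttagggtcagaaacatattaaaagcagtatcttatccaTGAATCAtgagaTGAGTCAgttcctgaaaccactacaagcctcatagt

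The stretch held CATTCC once and the AP-1 sequence 2 times. These matches describe the letters and do not show binding.

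The other 3 TEAD genes had H3K4me3 and H3K27Ac at the promoter and little or no H3K4me1. TEAD2 (ENSG00000074219, chr19:49843852-49865714) had 2 H3K4me3, 2 H3K27Ac and 3 FAIRE peaks in its window and no H3K4me1 peak, the nearest of which was 381424 bp from its 5′ end. Its promoter peaks, with an H3K4me3 score of 3100, an H3K27Ac score of 353 and a FAIRE height of 126, also covered a promoter of its neighbour DKKL1. The only other H3K4me3 and H3K27Ac peaks lay at a promoter of CD37, so that TEAD2 had no acetylated region that could be placed outside promoters.

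TEAD3 (ENSG00000007866, chr6:35441374-35464856) also lacked H3K4me1, with the nearest peak 98469 bp away. Its promoter had H3K4me3 with a score of 3100 and H3K27Ac with a score of 2475, and no FAIRE peak came closer to the 5′ end than 28429 bp. One intronic H3K27Ac peak of 5.31 kb, centred 10.8 kb into TEAD3, had a score of 3100 and met no peak of the other lists. Of its 3 H3K4me3 peaks, the other 2 lay at promoters of FANCE and RPL10A. With the peaks of these neighbours included, TEAD3 combined a high covered share of H3K27Ac, 17.5% of the window, with no enhancer monomethylation.

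TEAD4 (ENSG00000197905, chr12:3068496-3149842) had an H3K4me3 peak of 4.5 kb with a score of 3100 and an H3K27Ac peak of 4.66 kb with a score of 3047 at its 5′ end. No FAIRE peak lay within 65810 bp of that end. The only H3K4me1 peak of the window, with a score of 54.6, was in the neighbouring gene TULP3. Its H3K27Ac peaks covered 4.97% of the window and its FAIRE peaks 0.892%, the lowest shares of the 10 members. Among the 4 TEAD genes, TEAD1 alone thus had H3K4me1 peaks inside the gene in MDAMB231. Windows without any H3K4me1 peak, as at TEAD2 and TEAD3, were found for 37.3% of all protein-coding genes.

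**Figure D2:**
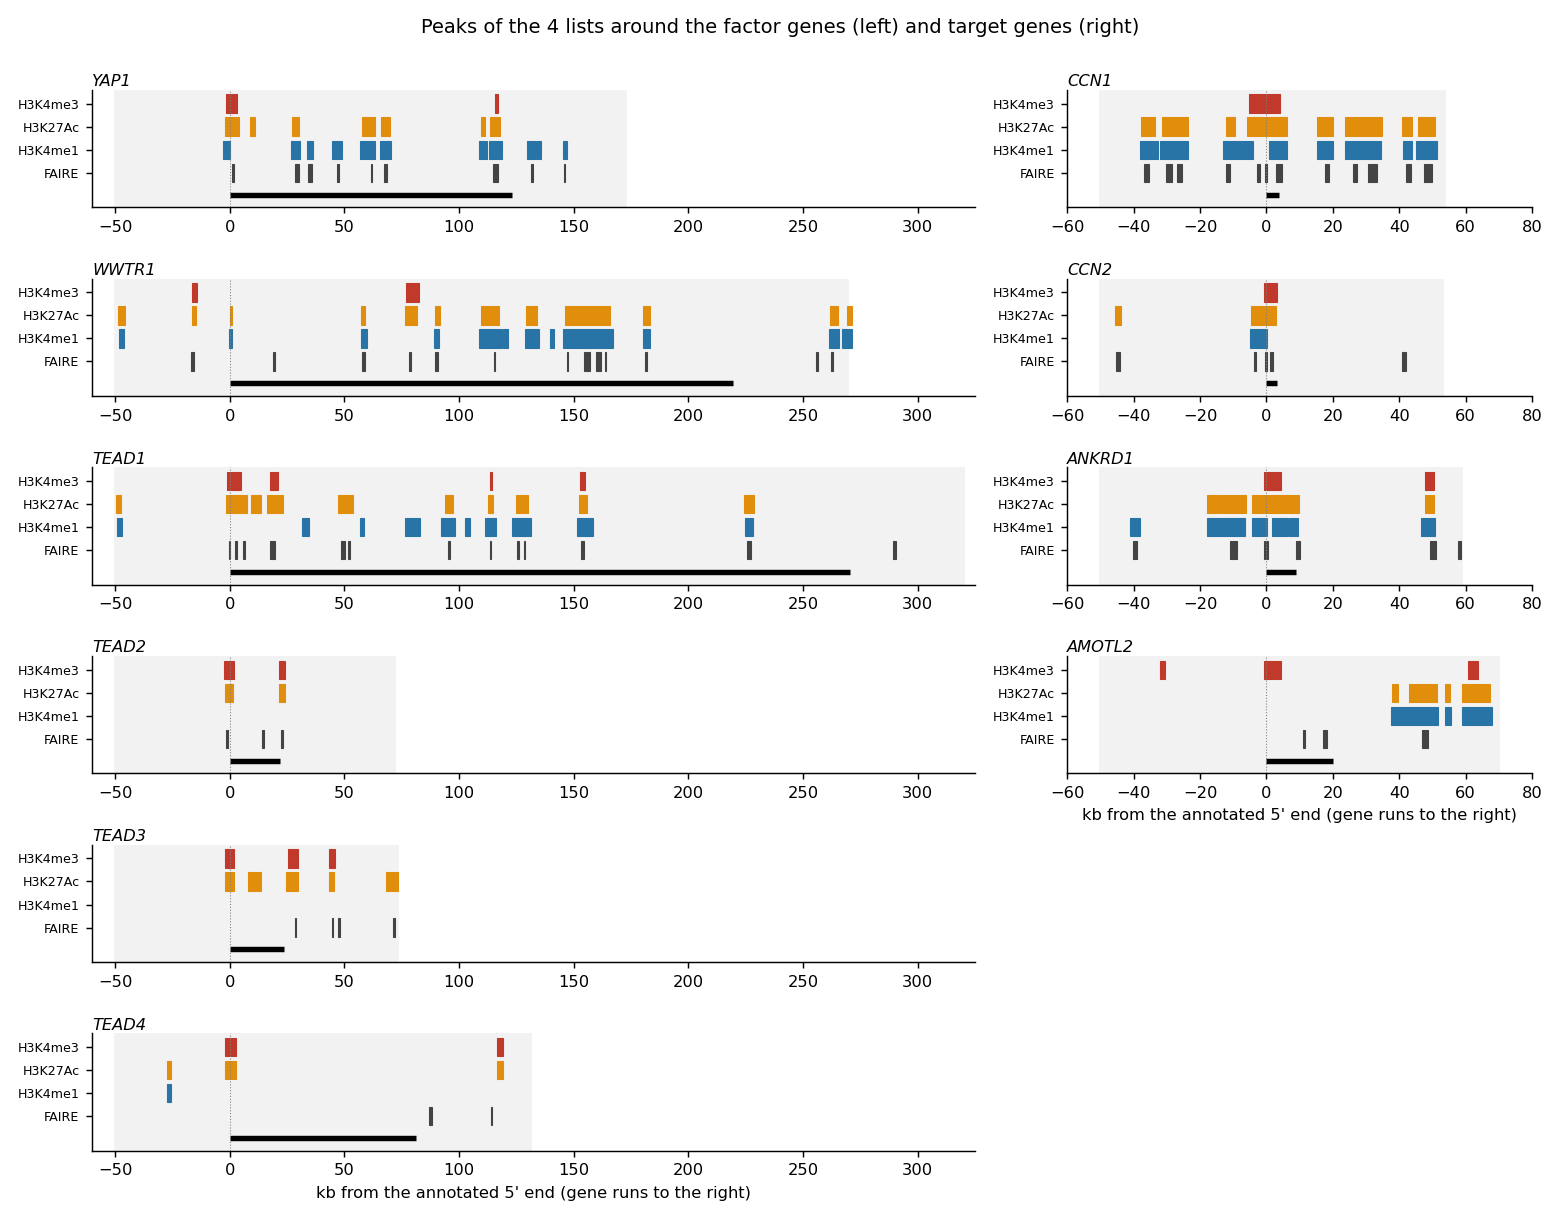
Position of every peak of the 4 lists in the 10 windows, in kb from the annotated 5′ end, with the gene body as a black bar and the window shaded. Peaks of WWTR1 and TEAD1 spread over the introns, those of CCN1 fill the window on both sides of a gene of 3.83 kb, and the H3K27Ac and H3K4me1 peaks of AMOTL2 lie beyond its 3′ end.

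CCN1 (ENSG00000142871, chr1:86046444-86050272, plus strand) had the most densely marked window of all members. It held 1 H3K4me3, 8 H3K27Ac, 8 H3K4me1 and 15 FAIRE peaks in 104 kb. H3K27Ac covered 49.3% of the window, H3K4me1 51.0% and FAIRE 17.8%, where the medians of all protein-coding genes were 6.17%, 2.44% and 1.84%. With these shares CCN1 ranked 9 for H3K27Ac, 2 for H3K4me1 and 3 for FAIRE among the 20098 genes. Because short genes have short windows, the ranks were also taken, after the values were seen, among the 5237 genes with windows of at most 110 kb, where they were 7, 2 and 3. For H3K4me3 its rank was 3569, so CCN1 stood at the top by the covered shares of H3K27Ac, H3K4me1 and FAIRE and not by that of H3K4me3.

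At the CCN1 promoter, an H3K4me3 peak of 9.41 kb, wider than 99.8% of the list, lay within an H3K27Ac peak of 12.1 kb, and both had scores of 3100. H3K4me1 was absent over the start itself: one peak ended 3976 bp upstream and the next began 715 bp downstream. Both wide peaks also reached a promoter of DDAH1, the neighbour upstream, and 3 further H3K27Ac peaks lay inside DDAH1. The FAIRE peak over the CCN1 start had a height of 60.6, near the list median of 61.1. The tallest FAIRE peak of all members, with a height of 179, was instead 26.6 kb downstream of the 5′ end, in intergenic sequence, within an H3K27Ac peak of 11.2 kb and an H3K4me1 peak of 10.9 kb. The region downstream of CCN1 was thus more accessible than its own promoter.

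CCN2 (ENSG00000118523, chr6:132269316-132272512, minus strand) had the fewest H3K27Ac and H3K4me1 peaks of the targets, with 1 H3K4me3, 2 H3K27Ac, 1 H3K4me1 and 5 FAIRE peaks in 103 kb. The signals met at its single start site. An H3K4me3 peak of 4.07 kb with a score of 3100 extended over the gene body, while an H3K27Ac peak of 7.75 kb with the same score reached 4808 bp upstream. The H3K4me1 peak had a score of 352 and ended 23 bp inside the gene, so that the mark covered the upstream side only. FAIRE peaks of height 79.6 and 46.0 were centred 0.114 kb upstream and 1.44 kb downstream of the start. In contrast to CCN1, little was found away from the promoter. An H3K27Ac peak with a score of 103 and a FAIRE peak with a height of 58.0 shared a site about 44.8 kb upstream. Other FAIRE peaks lay 3.49 kb upstream, with a height of 49.9, and 41.5 kb downstream, with a height of 29.8.

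ANKRD1 (ENSG00000148677, chr10:92671853-92680844, minus strand) had 2 H3K4me3, 4 H3K27Ac, 7 H3K4me1 and 7 FAIRE peaks in 109 kb. One H3K27Ac peak of 14.1 kb, the widest of all members, ran from 4349 bp upstream of the start across the whole gene. A FAIRE peak with a height of 151, above 98.1% of the list, stood over the start. The H3K4me1 peak at the start, with a score of 313, reached 10 bp into the gene and otherwise lay upstream, but unlike at CCN2, 2 further H3K4me1 peaks were centred inside the gene, at 4.01 and 8.11 kb. Farther upstream, at 9.76 kb, an H3K27Ac peak of 7.46 kb had a score of 3100. It met an H3K4me1 peak with a score of 683 and adjoining FAIRE peaks of heights 66.7 and 100. ANKRD1 ranked 545 for H3K27Ac, 92 for H3K4me1 and 389 for FAIRE among all genes, and its other H3K4me3 peak belonged to the promoter of RPP30.

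The promoters of these 3 target genes held the TEAD core sequence close to the start site. In the 250 bases upstream of the 5′ end, CATTCC on either strand occurred once at CCN1, 3 times at CCN2 and 2 times at ANKRD1. Such a match was present upstream of 11.0% of all protein-coding genes, and 5 of the 10 members had one, the others being YAP1 and TEAD1. With every annotated start site taken, 9 members had one, all but TEAD2, with 36.4% among all genes, although the members have a median of 6.5 start sites and all genes 5, so the shares are not on equal terms. The match was not particular to the targets. Upstream of the 5′ end alone, at least 3 matches were found at 0.0945% of all genes and at least 2 at 0.871%. Factor genes also had several matches upstream of a single other start site, with 3 at TEAD1 and 2 each at TEAD3 and TEAD4. The upstream stretches are shown because FAIRE peaks of all 3 genes cover them. They are written in the direction of transcription from GRCh37, at chr1:86046194-86046443 (plus strand) for CCN1, chr6:132272513-132272762 (minus strand) for CCN2 and chr10:92680845-92681094 (minus strand) for ANKRD1, with the same matches in capitals.

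CCN1 upstream: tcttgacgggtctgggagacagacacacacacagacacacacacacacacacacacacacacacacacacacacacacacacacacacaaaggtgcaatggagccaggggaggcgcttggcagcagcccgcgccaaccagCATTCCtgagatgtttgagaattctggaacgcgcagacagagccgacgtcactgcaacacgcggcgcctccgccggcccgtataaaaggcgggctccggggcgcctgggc

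CCN2 upstream: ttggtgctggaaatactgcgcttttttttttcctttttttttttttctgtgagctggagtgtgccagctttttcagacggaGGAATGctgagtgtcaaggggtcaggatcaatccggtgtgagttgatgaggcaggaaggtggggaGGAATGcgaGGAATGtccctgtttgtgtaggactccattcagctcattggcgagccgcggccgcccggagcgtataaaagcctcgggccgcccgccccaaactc

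ANKRD1 upstream: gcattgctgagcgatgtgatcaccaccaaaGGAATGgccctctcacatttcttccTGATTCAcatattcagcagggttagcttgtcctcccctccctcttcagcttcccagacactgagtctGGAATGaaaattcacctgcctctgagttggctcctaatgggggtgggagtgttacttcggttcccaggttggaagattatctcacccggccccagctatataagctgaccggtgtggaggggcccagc

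In CCN2, the matches nearest to the gene are separated by 3 bases, and all 3 read GGAATG in the direction of transcription. ANKRD1 combined its matches with one AP-1 sequence, and CCN1 and CCN2 had no AP-1 sequence in these stretches.

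AMOTL2 (ENSG00000114019, chr3:134074189-134094321, minus strand) differed from the other targets. Its window of 120 kb held 3 H3K4me3, 4 H3K27Ac, 4 H3K4me1 and 5 FAIRE peaks. Its promoter region held an H3K4me3 peak of 5.06 kb with a score of 3100, wider than 96.2% of the list, and no peak of the other lists. H3K4me3 without H3K27Ac at the promoters was found at 6.05% of all genes, and H3K4me3 without any of the other 3 signals at 4.95%. The nearest H3K27Ac peak was 37683 bp from the 5′ end. Beyond the 3′ end, 4 H3K27Ac peaks lay from 38.7 to 63.1 kb downstream of the 5′ end. The largest of them, 8.34 and 8.4 kb wide with scores of 3100, were centred at 47.2 and 63.1 kb. The former held 3 FAIRE peaks that adjoin without a gap, with heights of 56.7, 74.0 and 64.2. The latter held an H3K4me3 peak of 2.77 kb with a score of 1131, and another H3K4me3 peak, with a score of 524, lay 31.2 kb upstream of AMOTL2 without the other signals. No other protein-coding gene reached into the window, and which gene the acetylated regions act on was not tested here.

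AMOTL2 had no CATTCC in the 250 bases upstream of the annotated 5′ end. Among its 12 annotated start sites, 2 had a match upstream of them, both 1.03 kb inside that end. H3K4me3, but no FAIRE peak, was present at these start sites. Inside the gene, intronic FAIRE peaks at 11.2 and 17.7 kb, with heights of 43.0 and 80.7, met none of the 3 histone marks.

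Factor and target genes were then compared by the share of each window that the peaks covered. For H3K27Ac the shares ran from 4.97% to 17.5% with a median of 12.6% in the factors, and from 9.18% to 49.3% with a median of 21.6% in the targets. For H3K4me1 they ran from 0% to 19.1% with a median of 6.81% in the factors and from 4.79% to 51.0% with a median of 24.4% in the targets. The targets were thus higher by their medians for both marks, but the groups overlapped, since CCN2 was below several factors. FAIRE shares were 0.892% to 4.66% (median 3.04%) in the factors and 3.11% to 17.8% (median 6.06%) in the targets. H3K4me3 shares were 2.43% to 8.55% (median 3.67%) and 3.95% to 9.06% (median 7.44%), with a median of 3.62% over all genes and 5.08% over the genes with windows of at most 110 kb. With flanks of 100 kb this order turned, with medians of 4.59% in the factors and 4.4% in the targets. By H3K4me1 the factors fell into the well-covered YAP1, WWTR1 and TEAD1, whose H3K4me1 shares of 18.8%, 19.1% and 12.5% exceeded those of 91.3% or more of all genes, and the sparsely covered TEAD2, TEAD3 and TEAD4. This split did not hold for H3K27Ac, where TEAD3 had the highest share of the factors.

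**Figure D3:**
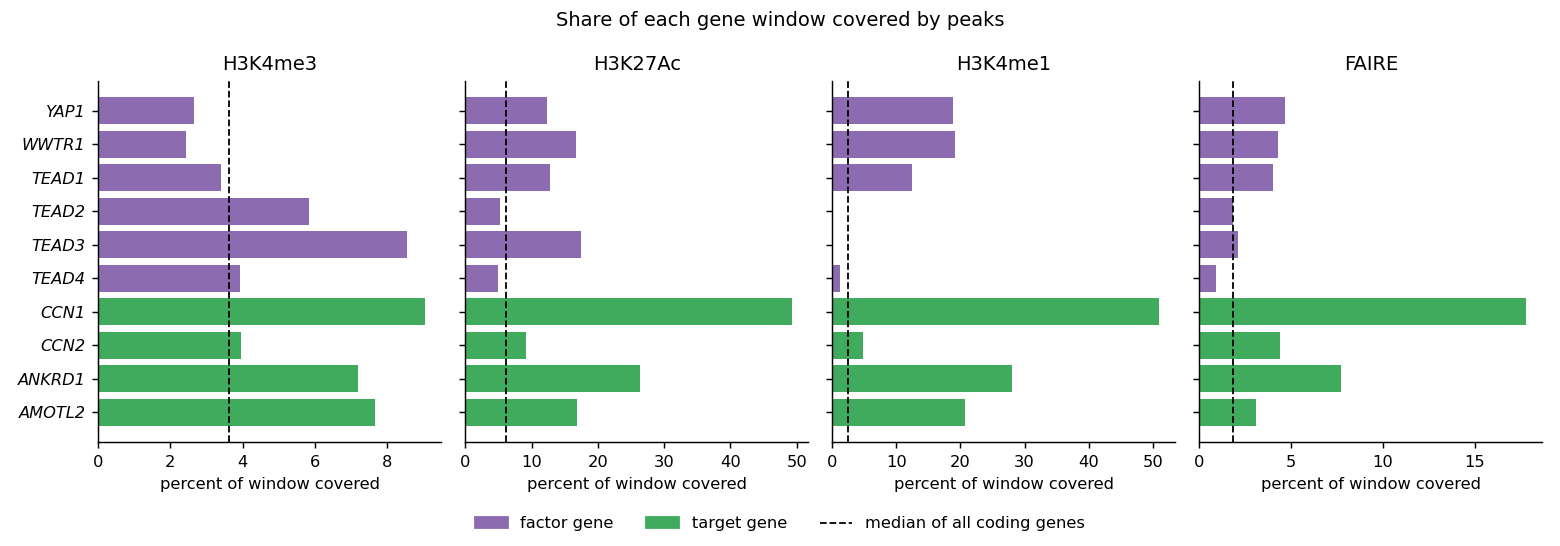
Percent of each window covered by peaks of each list (x axes differ between panels) for factor genes and target genes, with the median of all protein-coding genes as a dashed line. CCN1 stands above all others for H3K27Ac, H3K4me1 and FAIRE, and TEAD2 and TEAD3 have no H3K4me1.

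Counted as peaks per 100 kb of window, the targets had 1.6 H3K4me3, 4.13 H3K27Ac, 4.59 H3K4me1 and 7.34 FAIRE peaks. The factors had 1.12, 3.14, 2.69 and 3.73. The medians of all genes were 1.39, 2.11, 0.81 and 1.98, but the group values divide all peaks by all kb and are no medians. The median gene of the factors had 1.09 H3K4me3, 3.05 H3K27Ac, 1.63 H3K4me1 and 3.64 FAIRE peaks per 100 kb. That of the targets had 1.4, 3.5, 4.88 and 5.63. Several members lay below the all-gene medians. For H3K4me3 these were YAP1, WWTR1, TEAD1, TEAD4, CCN1 and CCN2, and for H3K4me1 TEAD2, TEAD3 and TEAD4. For H3K27Ac they were TEAD2, TEAD4 and CCN2, and for FAIRE TEAD4. CCN1 alone gave 15 of the 32 FAIRE peaks of the targets. Without it, which was tried after its values were seen, the targets had 3.01 H3K27Ac peaks per 100 kb, below the factors, but still 3.61 H3K4me1 and 5.12 FAIRE peaks. With flanks of 100 kb the order turned for H3K4me3, with 0.957 peaks per 100 kb in the targets and 1.24 in the factors.

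H3K27Ac peaks were wider around the targets and more often had scores of 3100 or more. Their median width was 4903 bp around the targets and 3582 bp around the factors. Widths of 10 kb or more were found for 3 of 18 peaks around the targets (2 at CCN1 and 1 at ANKRD1) and for 1 of 42 around the factors (at WWTR1), whereas 1.39% of the whole list were as wide. The limit of 10 kb was chosen after the widths were seen. Scores of 3100 or more belonged to 44.4% of the target peaks and 16.7% of the factor peaks, with 10.5% in the whole list. The widest peaks were thus not confined to the targets, and TEAD1 had one of 9.44 kb.

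**Figure D4:**
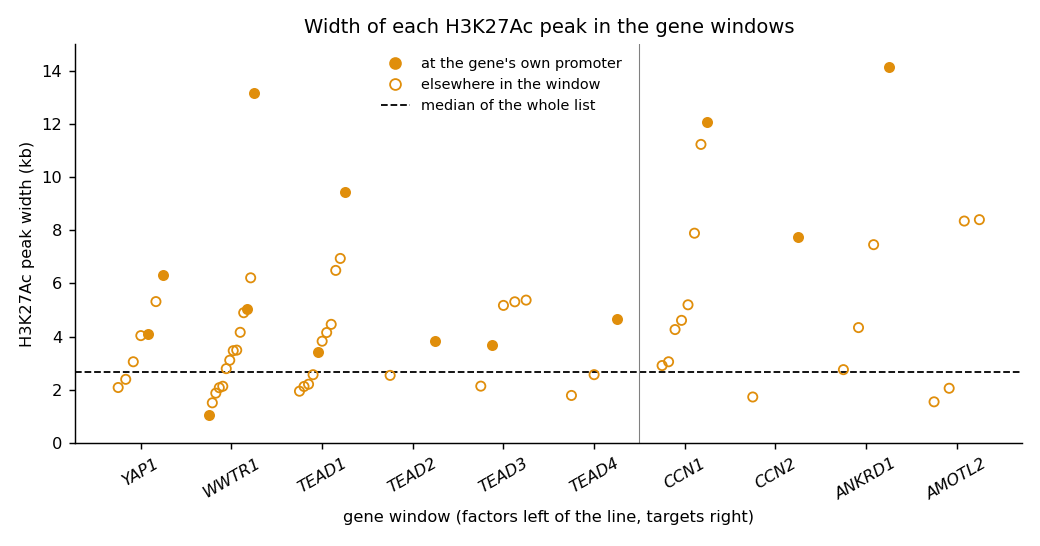
Width in kb of each H3K27Ac peak in the windows, with filled circles for peaks at the gene's own promoter, empty circles for others and a dashed line at the list median of 2664 bp. ANKRD1, WWTR1 and CCN1 have peaks over 10 kb, and the wide peaks of AMOTL2 lie away from its promoter.

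The FAIRE peaks away from any protein-coding promoter numbered 36 around the factors and 26 around the targets. An H3K27Ac peak was shared by 69.4% of them in the factors, near the 67.2% of the whole list, and by 80.8% in the targets. H3K4me1 was shared by 58.3% and 80.8%, with 61.2% in the whole list. Peaks that met none of the histone marks made up 19.4% in the factors and 15.4% in the targets, against 23% in the whole list. The higher shares of the targets came from CCN1, where all 13 such peaks shared H3K4me1 and H3K27Ac. H3K4me1 was shared by 1 of 3 at CCN2, 4 of 5 at ANKRD1 and 3 of 5 at AMOTL2, so the other targets did not stand apart from the factors.

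The sequences under the FAIRE peaks were searched in their central 300 bp. The TEAD core CATTCC, on either strand, was found in 19 of the 82 peaks around the members (23.2%, 95% Wilson interval 15.4% to 33.4%), close to the 21.4% of all FAIRE peaks. In the central 150 bp the members had it in 19.5% (interval 12.4% to 29.4%) and the list in 11.6%. The higher share of the members there came from the targets, with 28.1% (interval 15.6% to 45.4%). The factors had 14% in 150 bp (interval 6.95% to 26.2%), an interval that holds the share of the list. In the central 300 bp, 12 of 32 target peaks had CATTCC (37.5%, interval 22.9% to 54.7%). Of the factor peaks 7 of 50 had it there (14%, interval 6.95% to 26.2%). The intervals of targets and factors overlap in 300 bp. They cover counting error only and not the spread between genes, so they do not decide whether the shares differ. CCN2 had the match in 4 of its 5 FAIRE peaks and CCN1 in 6 of 15. WWTR1 had it in 1 of 16, some of which adjoin without a gap. The AP-1 sequence TGANTCA was found in 22 of the 82 peaks (26.8%, interval 18.4% to 37.3%), below the 39.1% of all FAIRE peaks. This depended on the stretch and on the peaks taken: in the central 150 bp the members and the whole list both had 23.2%, and among peaks at or above the median height the interval of the members, 20.3% to 45%, held the 42.1% of the list. In 300 bp the factors had it in 30% and the targets in 21.9% of their peaks. Both sequences occurred together in 7 of the 82 peaks (8.54%), and in 8.71% of the whole list. With FAIRE heights at or above the list median, the CATTCC share of the targets was 26.1%, with 22.6% in the list.

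**Figure D5:**
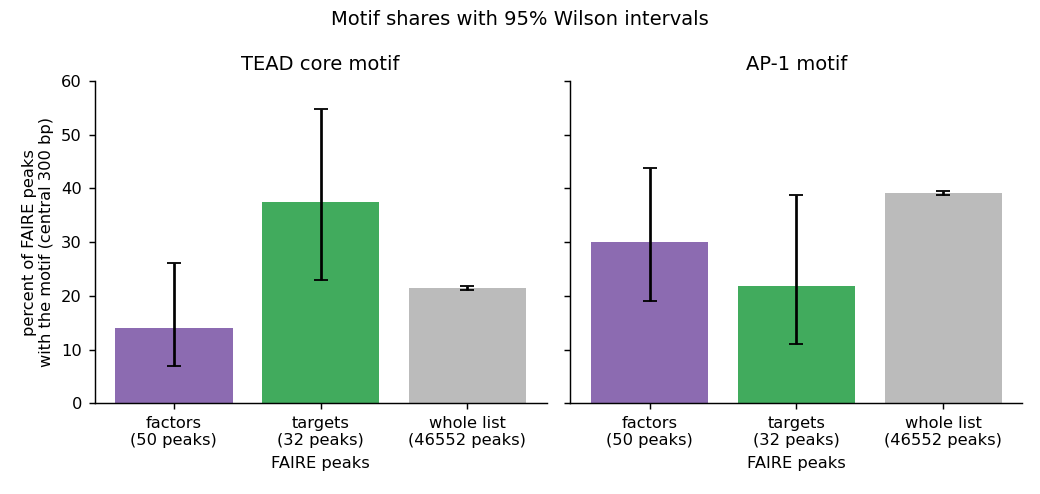
Percent of FAIRE peaks whose central 300 bp hold the TEAD core (left) or the AP-1 sequence (right) around factor genes, target genes and in the whole FAIRE list; bars start at 0 and error bars are 95% Wilson intervals. The TEAD core is found in 37.5% of target peaks and 14% of factor peaks. The intervals overlap and do not measure the spread between genes.

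The tallest target peaks away from promoters carried both sequences in the windows of CCN1 and CCN2. For CCN1 this is the peak 26.6 kb downstream, with its centre at chr1:86072902-86073201, and for CCN2 the peak 44.7 kb upstream of the start, at chr6:132317083-132317382. Both are intergenic and are written on the plus strand of GRCh37, with the same capitals.

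CCN1 downstream: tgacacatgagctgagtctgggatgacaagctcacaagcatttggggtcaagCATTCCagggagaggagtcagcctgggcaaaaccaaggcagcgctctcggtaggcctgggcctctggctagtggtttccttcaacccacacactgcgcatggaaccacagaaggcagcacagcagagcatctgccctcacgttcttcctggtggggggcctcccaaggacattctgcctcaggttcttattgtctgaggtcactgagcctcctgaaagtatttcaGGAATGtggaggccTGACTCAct

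CCN2 distal: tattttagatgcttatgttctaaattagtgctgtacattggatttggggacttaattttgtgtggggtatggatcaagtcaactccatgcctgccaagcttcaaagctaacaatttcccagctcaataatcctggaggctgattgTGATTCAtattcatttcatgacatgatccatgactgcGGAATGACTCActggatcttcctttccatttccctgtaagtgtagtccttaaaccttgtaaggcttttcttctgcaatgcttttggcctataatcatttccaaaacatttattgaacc

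The CCN1 element held CATTCC or its complement 2 times and the AP-1 sequence once. In the CCN2 element GGAATG ran directly into TGACTCA, sharing letters, beside a further AP-1 sequence. The corresponding elements of ANKRD1, at 10.4 kb upstream, and of AMOTL2, at 17.7 kb, held neither in their central 300 bp. Over the whole peak, CATTCC was present in both, and the AP-1 sequence in that of ANKRD1 only.

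Other genes of the pathway were read for comparison. Of 16 Hippo regulators, 15 had an H3K4me3 peak at a promoter, 14 H3K27Ac, 6 H3K4me1 and 11 FAIRE, beside 67.3%, 63.5%, 20.0% and 39.3% of all genes. VGLL1, which encodes a TEAD cofactor, had none of the 4, and AMOT, an angiomotin like AMOTL2, had H3K4me3 and FAIRE but no H3K27Ac peak anywhere in its window. The median covered share of H3K27Ac was 7.91%, below the 12.6% of the factors. PTPN14, STK4 and NF2, whose products restrain YAP1, had the highest shares with 23.1%, 18.1% and 14.6%.

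Of 18 other YAP and TAZ target genes, 17 had promoter H3K4me3, 18 H3K27Ac, 15 H3K4me1 and 15 FAIRE, to be read beside the same shares of all genes. ASAP1 was the one without H3K4me3. Their median covered share of H3K27Ac was 19.0%, near the 21.6% of the 4 targets above and over the 6.17% of all genes. CRIM1, NT5E and GADD45A led with 32.0%, 30.7% and 29.0%, all below the 49.3% of CCN1. LATS2 and PTPN14 belong to both lists. No gene of these target genes lacked acetylation at the promoter, so AMOTL2 was the only target read here without it. This is a single gene, and 6.05% of all genes had promoter H3K4me3 without H3K27Ac.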

How the data were processed

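Peaks were analysed as deposited. Reads had been aligned by the authors to GRCh37 with BWA, duplicates and reads of low mapping quality removed, and libraries of an assay combined. This follows the methods of the authors, while the sample labels name TopHat and HOMER, and the lists do not settle which aligner was used. Histone peaks carry the deposited score of MACS, run by default against input, which is minus 10 times the log10 of the p-value. For FAIRE, the authors gave the height of the peak as a signal from FindPeaks. Read depth was not used here. Lists were assigned to assays by their names.

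Gene bounds and start sites were those of GENCODE 44 lifted to GRCh37. Shared bases and covered bases were computed with numpy 2.4.6 and pandas 2.3.3 and checked against bedtools 2.31.1 on 300 windows of simulated intervals, with 0 differences. Wilson intervals came from scipy 1.17.1, and figures from matplotlib 3.10.9. Motifs were searched on both strands of the genome sequence. The members and the gene lists were chosen with earlier results of these data known, so all comparisons are descriptions without tests. All 10 members are named. Of the Hippo regulators and other target genes, those without promoter H3K4me3 or H3K27Ac and the 3 with the highest H3K27Ac share are named, with LATS2 as a gene of both lists. Windows and peaks close to each other are not independent, and Wilson intervals cover counting error only. Alternatives were flanks of 25 and 100 kb, promoters of 500 bp and 2 kb or at the 5′ end only, stricter peaks, peak centres, and other stretches for motifs.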

Additional observations from a re-analysis of the deposited data

How the results depend on the processing

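No paired analysis was possible because the replicates of each assay were merged into 1 list, and for the same reason no library could be left out. Of 110 values under other settings, 96 were within 1.5 times the reported value or, for motif shares, within its Wilson interval. The settings that leave out CCN1 or peaks at promoters of other genes were chosen after seeing the data. The cause of the 14 larger shifts was not tested beyond what each setting removes or adds.

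Peaks per 100 kb around the factors were 0.747 for H3K4me3 without peaks at promoters of other genes, and 1.72 for H3K4me1 and 2.09 for FAIRE with stricter peaks (a score of 100 or more, or a FAIRE height at or above the list median). With flanks of 100 kb, the targets had 0.957 H3K4me3 peaks per 100 kb. The median covered share was 1.84% for FAIRE in the factors with stricter peaks, and 4.4% for H3K4me3 and 15.4% for H3K4me1 in the targets with flanks of 100 kb. With the peak centre inside the promoter, 2 members had promoter H3K4me1. Over the whole FAIRE peak, CATTCC was found in 53.7% of member, 44% of factor and 68.8% of target peaks, and TGANTCA in 48.8%, 46.0% and 53.1%. The whole list had 46.3% and 59.2%.

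Only 1 line was studied, heights and scores are not scaled between lists, windows take in neighbouring genes, and peaks do not show which gene they act on.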
